A study of Mus musculus with 2 samples.

Results

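The genes that encode the translation initiation factors (eIF1 to eIF6) and the translation elongation factors (eEF) were followed through the islet cells of wild-type (WT) and ghrelin-knockout (GKO) mice. Members were taken by symbol, as every gene whose name starts with Eif1 to Eif6 or with Eef, without the kinase genes named Eif2ak or Eef2k and without pseudogenes. This gave 60 of the 27998 genes in the matrices. They fell into 14 genes of eIF3, 11 of the cap-binding proteins eIF4E and eIF4G with their partners, 6 of eEF1, 5 each of eIF1 with eIF1A, of eIF2B and of eIF4A with eIF4B and eIF4H, 4 of eIF2, 4 of eIF5, 3 other Eif2 names and 1 each of eIF6, eEF2 and eEFSec. Of the 3 other Eif2 names, Eif2c5 is an old symbol of the Argonaute family that the rule took in by its first letters. It is annotated as a noncoding RNA gene (lincRNA), and no UMI was counted for it.

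Initiation factors bring the initiator tRNA, the small ribosomal subunit and the capped end of an mRNA together. The eIF2 complex carries the initiator tRNA, eIF2B reloads eIF2 with GTP, eIF3 holds the small subunit, and eIF4E, eIF4G and eIF4A bind the cap and open the mRNA. Elongation factor eEF1A then delivers each aminoacyl-tRNA to the ribosome, eEF1B recharges eEF1A, and eEF2 moves the ribosome along by a codon. In islets these factors serve cells that make very large amounts of few secreted peptides, and their supply is known to be adjusted by growth and stress signals.

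The WT mice and the GKO mice, which were homozygous for the ghrelin deletion, were C57BL/6N males at 8 weeks of age. Islets of 4 mice were pooled per genotype, viable cells were sorted, and 1 library of transcript 3′ ends was made from each pool. There was thus 1 library per genotype and no test was possible. All intervals are exact 95% intervals, which cover counting error only and neither mice nor preparations, and a library and its genotype cannot be told apart.

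The WT matrix held 7792 barcodes with 158067110 unique molecular identifiers (UMIs, one per captured transcript), and the GKO matrix held 7289 barcodes with 103511757 UMIs. The study's limits (500 genes or more, mitochondrial UMIs not above 10%) left 7100 WT and 6346 GKO barcodes, and 18 barcode sequences occurred in both. A kept barcode was assigned to the hormone with the largest share of its UMIs where that share was at least 10%, which gave 1048 WT and 1397 GKO α barcodes (Gcg), 2265 and 872 β barcodes (Ins1 with Ins2), 1414 and 1003 δ barcodes (Sst) and 717 and 669 γ barcodes (Ppy). The other 1656 WT and 2405 GKO barcodes are called nonendocrine. Ghrl, the deleted gene, had 43634 UMIs in WT and 280 in GKO. In WT the median barcode held 8568 UMIs in the nonendocrine and 37124 in the β group. In GKO these medians were 8053 and 35811. The median mitochondrial share was higher in GKO than in WT in all 5 groups, for example 3.13% against 2.84% in β barcodes.

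Several members have a close partner gene, and 2 such pairs carry results below. To show how far the partners differ, the last 60 coding bases before the stop codon are given for both, from GENCODE vM21 on GRCm38. The kit reads transcripts near their 3′ end. After the coding part 288 bases follow in Eef1a1 and 2155 in Eif2s3x, and whether reads cover these stretches was not tested. Capitals mark bases with no identical partner in an alignment of the coding sequences. Eef1a1 (chr9:78478737-78478796, minus strand) and Eef1a2 (chr2:181147982-181148041, minus strand) encode the 2 forms of eEF1A, and 80.1% of the 1386 coding bases of Eef1a1 have an identical partner in Eef1a2.
Eef1a1: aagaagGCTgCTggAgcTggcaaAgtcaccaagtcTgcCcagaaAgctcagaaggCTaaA
Eef1a2: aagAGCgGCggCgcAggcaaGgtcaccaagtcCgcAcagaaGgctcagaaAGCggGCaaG
Eif2s3x (chrX:94190862-94190921, minus strand) and Eif2s3y (chrY:1028189-1028248, plus strand) encode the γ subunit of eIF2 and are identical at 86.3% of 1416 coding bases.
Eif2s3x: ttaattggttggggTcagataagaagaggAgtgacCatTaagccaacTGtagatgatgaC
Eif2s3y: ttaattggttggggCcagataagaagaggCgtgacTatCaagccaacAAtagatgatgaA
In these stretches 14 bases of Eef1a1 and 17 of Eef1a2 had no identical partner, and 7 bases differed between Eif2s3x and Eif2s3y. No window of 90 bases, the length of the transcript reads, was shared between the longest transcripts of either pair, so their UMIs can be told apart.

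The comparison first asked how much of the mRNA of each cell type encodes these factors. Counted over all UMIs, the members made up 1.13% of the WT and 1.10% of the GKO UMIs in α barcodes, 0.516% and 0.541% in β barcodes, 1.09% and 1.13% in δ barcodes, 0.806% and 0.828% in γ barcodes, and 1.53% and 1.52% in nonendocrine barcodes. Hormone transcripts took 61.3% of the UMIs of β barcodes in WT and 59.2% in GKO. Hormone-free shares, for which Ins1, Ins2, Gcg, Sst and Ppy do not count in the total, were 1.57% and 1.54% in α, 1.33% and 1.33% in β, 1.41% and 1.45% in δ, 1.28% and 1.29% in γ, and 1.57% and 1.55% in nonendocrine barcodes. In both libraries α and nonendocrine barcodes were thus at the top, and γ barcodes lay lowest. Single barcodes overlapped widely, since the hormone-free share had quartiles of 1.40% and 1.73% over WT α barcodes and of 1.14% and 1.44% over WT γ barcodes.

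**Figure D1:**
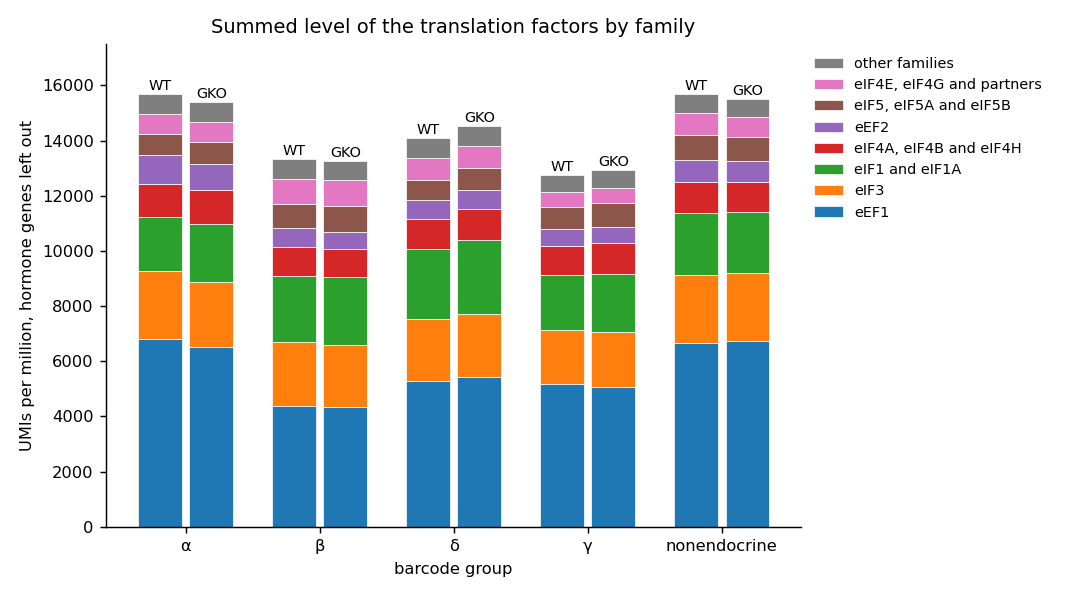
Summed hormone-free level of the translation factors in CPM, the counts in 1000000 UMIs (y axis), stacked by family, for the WT and the GKO library in each barcode group (x axis). The eEF1 genes form the largest block in every bar, and the paired WT and GKO bars are close in height.

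The elongation factors of the eEF1 family made up the largest part of this mRNA. In α barcodes they held 43.4% of the members' UMIs in WT and 42.2% in GKO, and in β barcodes 33.0% and 32.7%. Most of this was Eef1a1, at a hormone-free level of 4679 (WT) and 4393 (GKO) CPM in α barcodes and 3084 and 2973 in β barcodes. The eIF1 and eIF1A genes, which guard the choice of the start codon, came next in β barcodes, with 18.0% and 18.6% of the members' UMIs, led by Eif1 at a hormone-free level of 2099 and 2165 CPM. The 14 eIF3 genes together held 15.7% and 15.5% in α barcodes, and Eef2 alone held 6.72% and 6.12%.

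Between genotypes the summed level differed little. The log2 ratio of GKO to WT, over all UMIs, was −0.030 (interval −0.040 to −0.021) in α barcodes, 0.067 (0.059 to 0.075) in β, 0.048 (0.037 to 0.058) in δ, 0.040 (0.029 to 0.051) in γ and −0.010 (−0.018 to −0.0030) in nonendocrine barcodes. None of these sums differed by as much as 0.32 on the log2 scale, the limit used below. The sign in β barcodes depended on the total, since without hormone genes the log2 ratio was −0.0086. It was −0.031 in β and −0.023 in γ barcodes with TMM scaling, which sets most genes equal between 2 samples.

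Single members were compared where they had at least 500 UMIs in a group over both libraries, which counts as measured here. A total of 43 members were measured in all 5 groups, 12 in some groups and 5 in none. The unmeasured ones were Eif2c5 and Eif4e1b with no UMI in kept barcodes, Eif4ebp3 with 1 UMI, Eif3j2 with 95 UMIs in WT and 65 in GKO, and Eif5a2, the scarce form of eIF5A, with 507 and 423. A log2 ratio of at least 0.32 in either direction was taken as past the limit, without a test.

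In α barcodes 1 of 51 measured members was lower in GKO past this limit and 0 were higher, beside 3.12% of all 6214 measured genes lower and 4.46% higher. In β barcodes 0 of 55 members were lower and 0 higher, beside 2.82% and 6.13% of 8512 genes. In δ barcodes 2 of 48 were lower and 1 higher, beside 3.67% and 3.02% of 6024 genes. In γ barcodes 1 of 45 was lower and 0 were higher, beside 2.66% and 3.41% of 4991 genes. In nonendocrine barcodes 1 of 53 was lower and 0 were higher, beside 10.2% and 14.0% of 8420 genes. Members past the limit were thus few in each group, and their share lay under that of all genes in both directions except for the lower members of δ barcodes. With counts of 0 to 2, small differences from the shares of all genes cannot be read as a trait of the members. The part of counting error, which differs with the UMIs of a gene, was not tested.

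The members' median log2 ratio was −0.017 in α, 0.099 in β, 0.024 in δ, 0.043 in γ and −0.013 in nonendocrine barcodes. For all measured genes the medians were 0.053, 0.090, 0.032, 0.058 and 0.011. The members also spread less than all genes, with an interquartile range of 0.16 against 0.32 in nonendocrine barcodes, 0.16 against 0.19 in β barcodes and 0.13 against 0.19 in δ and γ barcodes. Counting error is smaller for genes with more UMIs, and its part in this contrast was not tested.

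**Figure D2:**
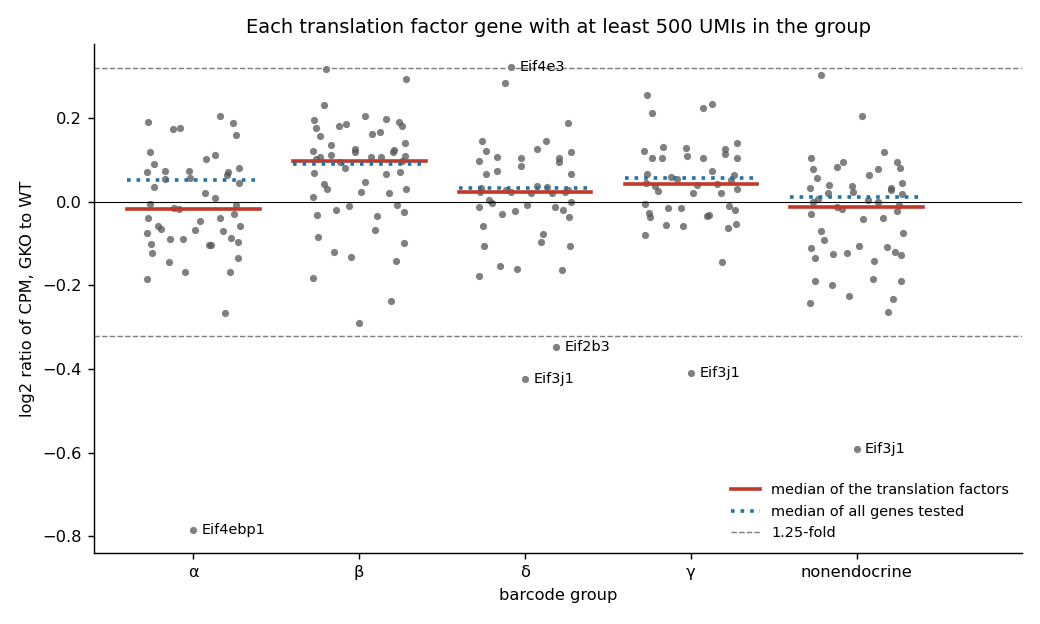
Log2 ratio of CPM, GKO to WT (y axis), of each translation factor gene with at least 500 UMIs, by barcode group (x axis). Points are genes, solid lines the members' medians, dotted lines the medians of all measured genes, and dashed lines the limit of 0.32. The named genes Eif4ebp1, Eif3j1, Eif2b3 and Eif4e3 lie past the limit.

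Most members lay close to equal levels, as the factors that act before the cap-bound mRNA joins show. In the eIF1 group Eif1 had log2 ratios of 0.10 in α, 0.12 in β, 0.13 in δ, 0.12 in γ and −0.0080 in nonendocrine barcodes. Its partner Eif1b lay between −0.012 and 0.073. The eIF1A genes Eif1a and Eif1ax, whose product scans for the start codon, lay between −0.13 and 0.019 and between −0.039 and 0.24. In eIF2, the β subunit gene Eif2s2 was the most abundant, with a hormone-free level of 239 CPM in WT and 223 in GKO α barcodes, and its ratio was lowest in nonendocrine barcodes at −0.23. Among the 5 subunits of eIF2B, Eif2b5, which encodes the catalytic subunit, lay between 0.0037 and 0.14 in the 4 groups in which it was measured, and Eif2b2 between −0.19 and 0.066.

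Core subunits of eIF3 showed small ratios too. Eif3a, which encodes the largest subunit, had 0.21 in β and −0.11 in nonendocrine barcodes. Eif3b and Eif3c, which encode core partners of it, were lowest in nonendocrine barcodes, at −0.26 and −0.24, and lay at 0.11 and 0.070 in β barcodes. Nonendocrine barcodes mix cell types, and their endothelial, mesenchymal and macrophage classes are described below. In these classes, in that order, Eif3b lay at 0.0014, −0.073 and −0.16, each with an interval that includes 0. The macrophage value rests on under 500 UMIs. Eif3c lay at −0.12, −0.19 and −0.27. The part of the class mix in the nonendocrine ratios was not tested. The ratios of Eif3e, Eif3f and Eif3h ran from −0.089 to 0.14 over all groups. Eif3i had the highest ratio of an eIF3 gene in nonendocrine barcodes, 0.12.

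At the cap, Eif4e, which encodes the main cap-binding protein, had ratios between −0.16 in δ and 0.054 in α barcodes. Eif4e2, whose product binds caps in repressed mRNAs, lay at 0.19 in δ barcodes. The scaffold gene Eif4g1 had ratios of 0.18 in α, 0.23 in β and 0.26 in γ barcodes, with intervals above 0, against −0.11 (−0.23 to 0.018) in δ and −0.13 (−0.23 to −0.036) in nonendocrine barcodes. Within the nonendocrine classes, Eif4g1 lay at 0.10 (−0.070 to 0.28) in endothelial and 0.099 (−0.096 to 0.30) in mesenchymal barcodes. In macrophage barcodes, with under 500 UMIs, it lay at −0.28 (−0.58 to 0.032). Eif4g2, which encodes a related scaffold without the eIF4E site, had −0.23 in nonendocrine and 0.12 in β barcodes. In endothelial, mesenchymal and macrophage barcodes its ratios were −0.0056, −0.12 and −0.20. The helicase genes Eif4a1 and Eif4a2 lay at 0.18 and 0.013 in β barcodes, and Eif4b, whose product stimulates the helicase, at −0.18 in α barcodes.

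Among the later factors, Eif5a, which encodes the hypusine-bearing protein that relieves stalled ribosomes, had ratios of 0.11 in α, 0.20 in β, 0.11 in δ, 0.23 in γ and −0.013 in nonendocrine barcodes. Eif5, which encodes the GTPase activator of eIF2, lay between −0.13 and 0.14, Eif5b between −0.15 and 0.11, and Eif6, which encodes an anti-association factor of the large subunit, between −0.091 and 0.12. Eef1a1 had ratios of −0.095 in α, 0.022 in β, 0.028 in δ, −0.036 in γ and 0.034 in nonendocrine barcodes. The genes of the exchange complex that recharges eEF1A lay between 0.036 and 0.16 (Eef1b2), −0.087 and 0.11 (Eef1d) and −0.19 and 0.097 (Eef1g). Eef1e1, which belongs to the tRNA synthetase complex, had 0.19 in β and 0.023 in nonendocrine barcodes, and Eefsec, the selenocysteine factor gene, was measured in β barcodes only, at 0.043.

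Eif3j1 was the member with the most repeated difference. It encodes the loosely bound j subunit of eIF3, which sits near the decoding site of the small subunit and also acts when ribosomes are recycled. Its level, over all UMIs, was 40.6 CPM in WT and 33.7 in GKO in α barcodes, 24.4 and 20.7 in β, 45.2 and 33.7 in δ, 39.7 and 29.9 in γ, and 76.6 and 50.8 in nonendocrine barcodes. GKO was the lower library in each of the 5 groups. The log2 ratios were −0.27 (−0.43 to −0.10), −0.24 (−0.36 to −0.11), −0.43 (−0.61 to −0.24), −0.41 (−0.58 to −0.24) and −0.59 (−0.71 to −0.48), in the same order. The last 3 passed the limit. After thinning to 2000 UMIs the γ ratio was −0.25 and no longer did. Of the 4510 genes measured in all groups, 58, or 1.29%, had all 5 ratios at or below the −0.24 that is the highest of Eif3j1. This comparison was made after its values were seen.

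In the nonendocrine barcodes the difference in Eif3j1 was present within marker classes. There a barcode was placed in the class whose fixed marker list had the most UMIs, at least 10. Endothelial barcodes (585 in WT and 443 in GKO) had 78.1 CPM of Eif3j1 in WT and 55.7 in GKO, a log2 ratio of −0.49 (−0.74 to −0.24). Mesenchymal barcodes (465 and 1008) had 81.9 and 48.3, a log2 ratio of −0.76 (−0.98 to −0.54). Macrophage barcodes (208 and 464) had 69.9 and 47.4, a log2 ratio of −0.56 (−0.85 to −0.27), from only 173 and 225 UMIs. These classes took very different shares of the nonendocrine barcodes, with 35.3% endothelial in WT against 18.4% in GKO and 28.1% mesenchymal against 41.9%.

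After each barcode was thinned to 5000 UMIs, with 353 WT and 540 GKO barcodes left out as too shallow, 31.8% (29.2 to 34.4) of WT and 21.8% (19.9 to 23.7) of GKO nonendocrine barcodes had an Eif3j1 UMI. Before thinning the shares were 46.6% and 33.1%. In β barcodes the thinned shares were 11.8% and 11.3%, with overlapping intervals. Eif3j1 UMIs were not confined to few nonendocrine barcodes, since the top 1% of barcodes held 9.27% of them in WT and 9.37% in GKO.

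The position of Eif3j1 limits how its counts can be read. The gene lies on chr2:122028546-122056598, plus strand, and its last 3079 bases overlap Spg11 on the other strand. Counting by strand is not stated for these files, although the kit keeps it. Spg11 itself had log2 ratios between −0.10 and 0.15 in the 5 groups, each with an interval that includes 0. The longest Eif3j1 transcript also shares 36.7% of its windows of 90 bases with Eif3j2, a close copy on another chromosome, and 0 of the 411 windows in its last 500 bases. In the last 500 bases of Eif3j2, 321 of 411 windows (78.1%) are shared with Eif3j1. Eif3j2 had 36 WT and 34 GKO UMIs in nonendocrine barcodes, a count that cannot show how many reads came from it. How reads from the shared windows were handled is not given in the sources used here, and their part in the difference was not tested.

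Eif4ebp1 encodes a repressor that binds eIF4E and keeps it from eIF4G until mTORC1 phosphorylates it. In α barcodes it had 304 UMIs in WT and 228 in GKO, or 21.0 and 12.2 CPM. This was the largest difference of a measured member in any group, with a log2 ratio of −0.78 (−1.04 to −0.53). The share of α barcodes with an Eif4ebp1 UMI was 22.5% in WT and 12.6% in GKO before thinning. After thinning to 5000 UMIs it was 9.55% (7.83 to 11.5) and 5.64% (4.49 to 6.99). In GKO the top 13 of 1397 α barcodes held 21.9% of the Eif4ebp1 UMIs, and in WT the top 10 of 1048 held 12.2%. No other group had a ratio as low. The log2 ratio was −0.18 (−0.37 to −0.00028) in β and 0.095 (−0.021 to 0.21) in nonendocrine barcodes, the other groups in which it was measured. With under 500 UMIs it stood at −0.33 (−0.71 to 0.050) in δ and 0.12 (−0.19 to 0.42) in γ barcodes. Eif4ebp2, the 2nd repressor of this kind, had a log2 ratio of −0.14 in α barcodes.

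In δ barcodes 2 more members were past the limit. Eif2b3 encodes the γ subunit of eIF2B, and its level was 20.0 CPM in WT and 15.8 in GKO, a log2 ratio of −0.35 (−0.62 to −0.079) that ran from −0.39 to −0.084 over other ways of processing. The same gene lay at −0.0066 in α, −0.068 in β and 0.079 in nonendocrine barcodes. In γ barcodes, with 207 and 234 UMIs and thus unmeasured, it was higher in GKO, at 0.33 (0.051 to 0.60). Eif4e3 encodes an atypical cap-binding protein of the eIF4E family. Its level in δ barcodes was 43.7 CPM in WT and 54.6 in GKO, a log2 ratio of 0.32 (0.16 to 0.48) that lay just past the limit (0.3229 against 0.3219) and fell inside it without hormone genes. Eif4e3 was also higher in GKO in β (0.30, interval 0.12 to 0.47) and nonendocrine barcodes (0.31, interval 0.14 to 0.47), just inside the limit. After thinning to 2000 UMIs the β ratio changed sign, to −0.42, which is past the limit. In nonendocrine classes the ratio was 0.31 (0.037 to 0.60) in mesenchymal barcodes. With under 500 UMIs it was 0.039 (−0.28 to 0.36) in endothelial and 0.58 (0.10 to 1.09) in macrophage barcodes.

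Of the 43 members measured everywhere, 5 had log2 ratios below 0 in all 5 groups and 4 had ratios above 0 in all. Among all 4510 such genes these shares were 7.76% and 23.1%. The 5 low members were Eif3j1, Eef2, the eIF2 subunit genes Eif2s2 and Eif2s3x, and Eif2d, which encodes a factor that delivers tRNA outside the usual route. Eef2, which encodes the translocating factor eEF2, lay at −0.17 in α, −0.12 in nonendocrine, −0.099 in β, −0.027 in γ and −0.022 in δ barcodes, and the intervals of the last 2 include 0. The 4 high members were Eef1b2, Eif2s1, Eif4a3 and Eif4g3. Eif2s1 encodes the α subunit of eIF2, the site that stress kinases phosphorylate, and its ratios ran from 0.00013 in δ to 0.21 in α barcodes. With TMM scaling each of the 4 lay below 0 in at least 1 group. The low members were not all firm either, since the highest ratio of Eif2s3x was −0.0038. Eif2d lay at −0.075 (−0.31 to 0.16) in α, −0.13 (−0.31 to 0.049) in β and −0.076 (−0.33 to 0.18) in δ barcodes. Over the other ways of processing Eif2s3x reached 0.28 in β and 0.22 in γ barcodes, and Eef2 0.025 in δ and 0.023 in γ. Eif3j1 and Eif2s2 stayed below 0 in all groups.

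The summed levels of the families differed little, and some had opposite signs in endocrine and nonendocrine barcodes. The summed eIF1 and eIF1A genes had log2 ratios of 0.089 in α, 0.11 in β, 0.11 in δ and 0.11 in γ barcodes, against −0.0045 (−0.024 to 0.015) in nonendocrine barcodes. The summed eIF5, eIF5A and eIF5B genes, which act at the joining of the ribosomal subunits and in elongation, lay at 0.090, 0.16, 0.084 and 0.11 against −0.058. The eIF4E and eIF4G family lay at 0.027 in α, 0.13 in β, 0.012 in δ and 0.052 in γ barcodes against −0.080 in nonendocrine barcodes. With TMM scaling the eIF1 genes lay above 0 in nonendocrine barcodes too, and the eIF4E and eIF4G family lay below 0 in all groups but β. Whether these contrasts between groups exceed the spread between mice was not tested. Leaving out hormone genes lowers every β ratio by 0.075, and the hormone-free β levels of these families were still higher in GKO. They were 2395 CPM in WT and 2461 in GKO for eIF1 and eIF1A, and 872 and 925 for eIF5, eIF5A and eIF5B. For the eIF4E and eIF4G family they were 913 and 949.

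Within eIF3, 1 other gene stood apart in β barcodes. Eif3m, which encodes a peripheral subunit of eIF3, had 150.3 CPM in WT and 122.9 in GKO, a log2 ratio of −0.29 (−0.34 to −0.24). Its hormone-free level was 388 CPM in WT and 301 in GKO, a log2 ratio of −0.37 and thus past the limit, while the α, δ, γ and nonendocrine levels were between 158 and 187 in WT and between 160 and 184 in GKO. β barcodes thus had the highest Eif3m level in both libraries, and that level was lower in GKO than in WT. Over the other ways of processing the β log2 ratio ran from −0.39 with TMM scaling to −0.15 after thinning to 2000 UMIs.

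**Figure D3:**
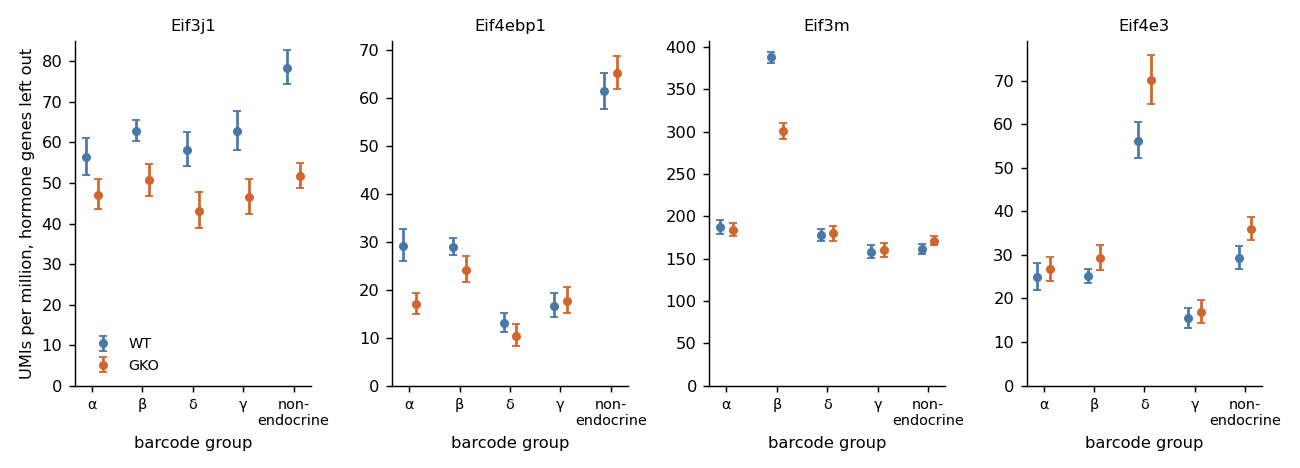
Hormone-free level in CPM (y axis) of Eif3j1, Eif4ebp1, Eif3m and Eif4e3 in each barcode group (x axis), WT in blue and GKO in orange, with exact 95% Poisson intervals as bars. Eif3j1 is lower in GKO in every group, Eif4ebp1 in α, and Eif3m in β barcodes, where it is also highest.

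The members were then compared across cell types within each library. A total of 55 members had at least 500 UMIs in each library, and for 45 of them the same group had the highest hormone-free level in WT and GKO. It was the nonendocrine group for 15, α for 13, β for 12, δ for 5 and γ for 0. γ barcodes had the lowest level for 18 members in both libraries. These counts are not given for all genes, so they cannot be read as particular to the members. The median ratio of the highest to the lowest group was 1.56-fold in WT and 1.55-fold in GKO. Among the most even members were Eif3g, with 1.10-fold and 1.16-fold, and Eif4a3, a helicase of the exon junction complex, with 1.12-fold in both.

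Eef1a2 had the widest range, 15.3-fold in WT and 21.1-fold in GKO. It encodes the form of eEF1A that is known to replace Eef1a1 in mature neurons and muscle. Its hormone-free level was 165 CPM in WT and 174 in GKO in α barcodes, 78.9 and 90.1 in γ, 41.2 and 39.3 in δ, 12.3 and 11.6 in β, and 10.8 and 8.27 in nonendocrine barcodes. The order of the groups was the same in both libraries. Eef1a2 made up 3.41% (3.25 to 3.57) of the UMIs of the pair with Eef1a1 in WT α barcodes and 3.82% (3.67 to 3.97) in GKO, against 0.399% and 0.390% in β barcodes.

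The same 3 groups led in the share of barcodes. After thinning to 5000 UMIs, an Eef1a2 UMI was found in 43.3% of WT and 43.1% of GKO α barcodes, 19.0% and 23.4% of γ, and 12.3% and 11.5% of δ barcodes. The shares were low in β barcodes, at 2.21% and 1.95%, and in nonendocrine barcodes, at 3.53% and 1.98%. The nonendocrine barcodes were not uniform. Ductal barcodes, a marker class, held 113 of their 186 Eef1a2 UMIs in WT and 82 of 177 in GKO. The ductal level over all UMIs was 36.3 and 26.9 CPM, against 4.10 and 14.5 in endothelial and 3.54 and 1.43 in mesenchymal barcodes. Hormone genes took 6.61% and 7.12% of the ductal UMIs, and whether endocrine cells with little hormone fell into this class was not tested. Without thinning the α shares were 69.3% and 67.6%, and the β shares 9.67% and 8.60%, at median depths of 12503 and 12174 UMIs in α against 37124 and 35811 in β. Free RNA was not removed from these counts, and its part in the low shares was not tested. Chga, a marker of endocrine cells, stood at 1286 CPM in WT and 997 in GKO nonendocrine barcodes, against 5016 and 5250 in α barcodes.

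The Y-linked and X-linked copies of the eIF2 γ subunit gene were counted at similar levels in most groups, and both are known to be active in male cells. Eif2s3y made up 50.0% of the pair in α barcodes of WT and 54.9% of GKO, 44.3% and 52.2% in β, 51.7% and 59.6% in δ, and 48.9% and 53.5% in nonendocrine barcodes. γ barcodes differed, since Eif2s3y held 69.9% of the pair there in WT (66.7 to 72.9) and 69.5% in GKO (66.1 to 72.7). The hormone-free level of Eif2s3x was 24.5 and 24.1 CPM in γ barcodes against 37.6 to 55.5 in the other WT groups and 32.8 to 47.7 in the other GKO groups. That of Eif2s3y was 56.8 and 54.7 in γ barcodes, the highest of the WT groups, against 35.9 to 50.9 in the other WT groups and 37.7 to 61.6 in the other GKO groups. Between genotypes Eif2s3y had log2 ratios of 0.19 in α, 0.319 in β, just inside the limit, 0.28 in δ, −0.031 in γ and 0.078 in nonendocrine barcodes. Ddx3y, another Y-linked gene, lay between −0.16 and 0.024 in the 5 groups, and Kdm5d and Uty, which are Y-linked too, between −0.17 and 0.22.

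**Figure D4:**
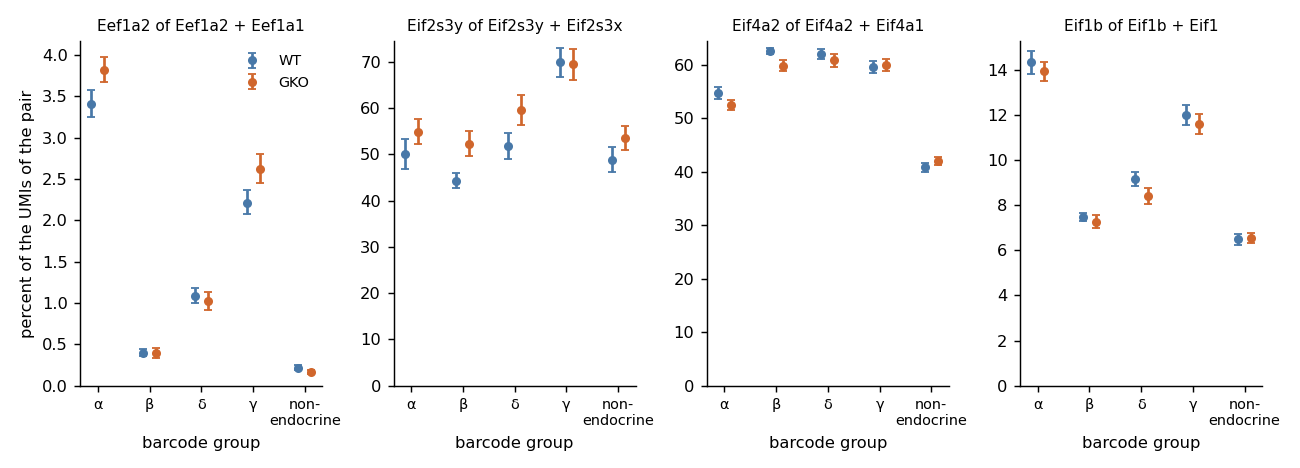
Share of the UMIs of a pair of partner genes that came from the gene named first (y axis, percent), by barcode group (x axis), WT in blue and GKO in orange, with exact 95% binomial intervals. Eef1a2 and Eif1b are highest in α, Eif2s3y in γ barcodes, and Eif4a2 is lowest in nonendocrine barcodes.

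The 2 genes of the helicase eIF4A divided the groups into endocrine and nonendocrine. Eif4a2 made up 54.7% of the pair with Eif4a1 in WT and 52.4% in GKO in α barcodes, 62.6% and 59.8% in β, 62.0% and 60.8% in δ, and 59.6% and 59.97% in γ. In nonendocrine barcodes its share was 40.8% (40.0 to 41.7) and 42.0% (41.2 to 42.8). This share pooled unlike classes. In endothelial barcodes Eif4a2 and Eif4a1 were near equal, at 360 and 346 CPM in WT and 350 and 358 in GKO. Mesenchymal barcodes had 313 and 440 in WT and 317 and 386 in GKO. Macrophage barcodes had 132 and 593 in WT and 155 and 485 in GKO. Eif1b, a partner of Eif1, made up 14.3% and 13.9% in α and 12.0% and 11.6% in γ barcodes, against 7.48% and 7.26% in β and 6.48% and 6.55% in nonendocrine barcodes.

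The control proteins around eIF4E also differed by cell type. Eif4ebp1 was highest in nonendocrine barcodes, at a hormone-free level of 61.3 (WT) and 65.2 (GKO) CPM, and lowest in δ barcodes at 13.1 and 10.4, a range of 4.68-fold and 6.28-fold. Eif4e3 was highest in δ barcodes at 56.3 and 70.1 and lowest in γ barcodes at 15.4 and 16.9. The scaffold gene Eif4g1 was highest in β barcodes at 173.8 and 193.7 and lowest in γ at 71.8 and 84.5. Several other members were also highest in β barcodes in both libraries, among them Eif4g2, Eif4g3, Eif3a, Eif3b and Eif5b. Eef2, Eef1b2, Eef1g and Eif4b were highest in α barcodes.

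**Figure D5:**
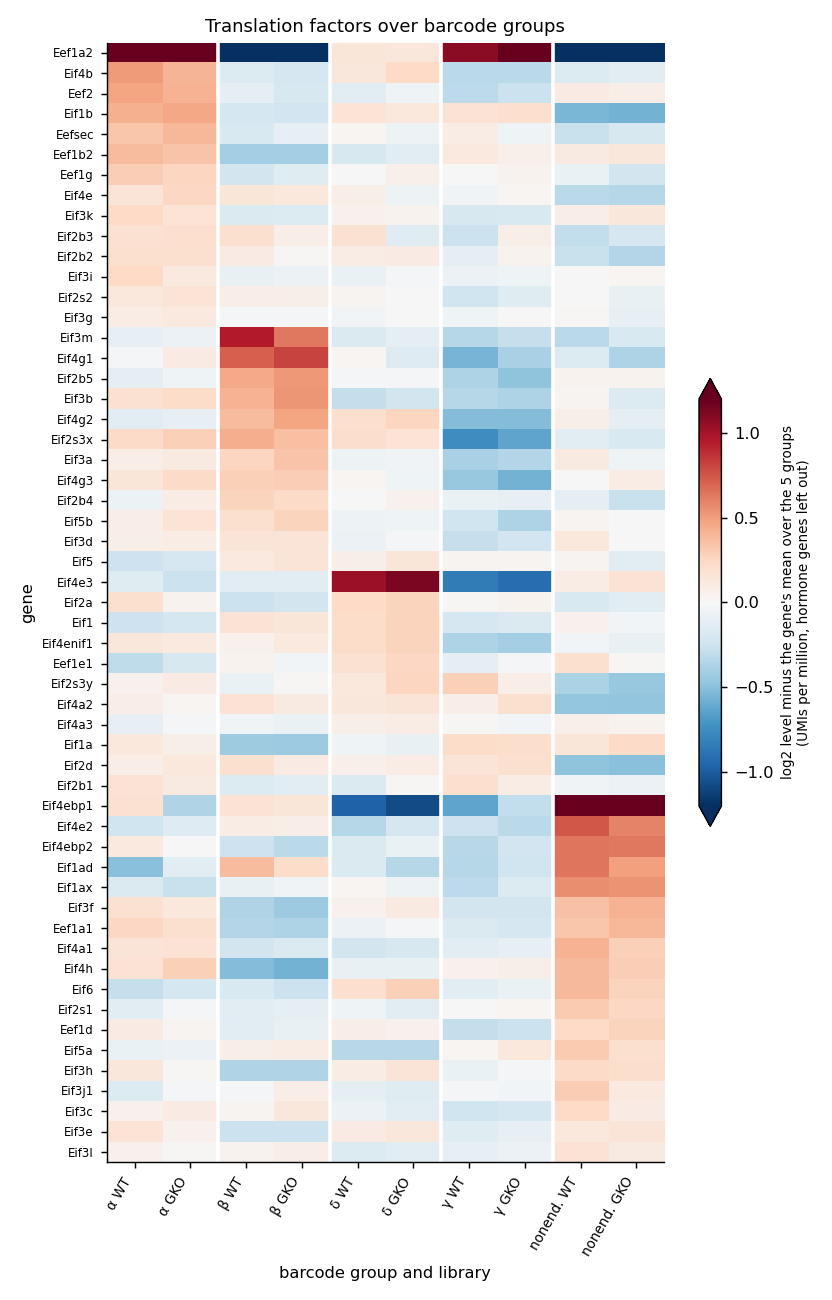
Level of the 55 translation factor genes with at least 500 UMIs in each library, as the log2 level minus the gene's own mean over the 5 barcode groups (color, hormone genes left out). Columns are barcode groups with the WT and the GKO library side by side, and rows are genes ordered by the group in which they are highest. The paired columns resemble each other, and Eef1a2, Eif4ebp1 and Eif4e3 have the strongest contrasts.

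Ribosomal proteins, the other large group of the translation machinery, were set beside the factors. The summed log2 ratio of 76 cytosolic ribosomal protein genes was −0.21 in α, −0.072 in β, −0.093 in δ, −0.15 in γ and −0.11 in nonendocrine barcodes. Of the 76, 19 were lower in GKO past the limit in α, 12 in β, 16 in δ, 17 in γ and 17 in nonendocrine barcodes, and 0 were higher. Among all measured genes the lower shares were 3.12%, 2.82%, 3.67%, 2.66% and 10.2%, in the same order. The higher shares were 4.46%, 6.13%, 3.02%, 3.41% and 14.0%. Per 100 ribosomal protein UMIs, UMIs of the translation factors numbered 9.31 in WT and 10.5 in GKO in α barcodes, 13.6 and 15.0 in β, 11.4 and 12.6 in δ, 11.5 and 13.2 in γ, and 10.8 and 11.5 in nonendocrine barcodes. The factors were thus higher relative to the ribosomal proteins in GKO in all 5 groups, beside summed levels that differed little.

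Among the members, 10 genes are known to carry a 5′ terminal oligopyrimidine tract, the element that places an mRNA under the joint control of ribosomal protein mRNAs, and they include Eef1a1, Eef1b2, Eef1g, Eef2 and Eif4b. These genes were listed from background knowledge. In the RefSeq promoters, which cover 46 members, a C at the listed start followed by 4 bases that are each C or T was found for 3 members and for 2.51% of all entries. In α barcodes 8 of the 10 had a ratio below 0, with a median of −0.088, against −0.0046 for the other 41 measured members. Below 0 there were also 21 of these 41 members, 69 of the 76 ribosomal protein genes and 35.9% of all 6214 measured genes. In the other groups their medians were 0.10 in β, 0.035 in δ, 0.026 in γ and 0.028 in nonendocrine barcodes. None of the 10 was past the limit in any group.

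Genes that control the factors were counted from fixed lists. Of 13 genes of the eIF2 and eEF2 kinases and the integrated stress response, 7 were measured in α, 10 in β, 5 in δ, 4 in γ and 8 in nonendocrine barcodes. Those past the limit were Atf4, higher in α barcodes (94.7 CPM in WT and 136 in GKO, log2 ratio 0.53), Eif2ak2, higher in β (0.48), Chac1, lower in β (−1.39), Ddit3, lower in γ (−0.39), and Asns, lower in nonendocrine barcodes (−0.67). Atf4, the transcription factor made when eIF2 is phosphorylated, had ratios of −0.19 in β, −0.078 in δ, 0.057 in γ and −0.13 in nonendocrine barcodes. With under 500 UMIs, Chac1 lay at −0.59 (−1.51 to 0.26) in δ, −0.85 (−1.57 to −0.16) in γ and −1.08 (−1.61 to −0.57) in nonendocrine barcodes. In α barcodes, also under 500 UMIs, it lay at 0.89 (0.33 to 1.48). The measured genes of this list thus had no shared direction over the groups.

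Of 14 genes of mTORC1 and eIF4E control, between 6 and 13 were measured per group. Mtor was past the limit in β (0.41) and Mknk1, which encodes a kinase of eIF4E, in nonendocrine barcodes (0.48), both higher in GKO. Of 8 genes of poly(A) binding, termination and recycling, only Pabpc4 was past it where measured, in β barcodes (0.37). Of 20 cytosolic tRNA synthetase genes, 19 were found by symbol, and in β barcodes Cars was lower (−0.35) and Lars higher (0.35). No other measured gene of these 3 lists was past the limit in any group. With under 500 UMIs, Pabpc4 lay at −0.51 (−0.78 to −0.24) in nonendocrine barcodes. Mtor, also under 500 UMIs there, lay at −0.38 (−0.76 to −0.0053) in α and at 0.37 (−0.063 to 0.81) in γ barcodes.

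In the marker classes of nonendocrine barcodes at most 1 member was past the limit in each direction. Such counts are too small to be read as more or fewer than for all genes. In endothelial barcodes 1 of 38 measured members, Eif3j1, was lower and 0 were higher, beside 5.40% and 6.25% of 3057 genes. In mesenchymal barcodes 1 of 41, Eif3j1, was lower and 1, Eif4g3, was higher, beside 6.68% and 13.3% of 3456 genes. Eif4g3 encodes a form of the scaffold eIF4G, and its level there was 76.3 CPM in WT and 101 in GKO. In macrophage barcodes 1 of 28, the eIF2 β subunit gene Eif2s2, was lower and 0 were higher, beside 12.1% and 14.1% of 1657 genes. Its level was 186 CPM in WT and 144 in GKO, a log2 ratio of −0.37 (−0.54 to −0.20). Eif3j1 was not measured in macrophage barcodes, with 173 and 225 UMIs and a log2 ratio of −0.56. Lymphocyte barcodes, only 49 in WT and 62 in GKO, had the highest summed share of translation factors, at 2.42% and 2.21% of their UMIs, and acinar barcodes, 34 and 13, the lowest of the classes of at least 10 barcodes in both libraries, at 0.723% and 0.682%.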

How the data were processed

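Islet cells of WT and GKO mice were profiled with the Chromium 3′ v3.1 kit. The deposited values are UMI counts per gene and barcode, not normalized. The authors made them with Cell Ranger 5.0.1 and STAR on mm10, down-sampling reads across samples as required, and ambient RNA had not been removed.

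Members, barcode groups and lists were chosen with earlier results of these data known. Group sums of UMIs were divided by their total in CPM, with or without the 5 hormone genes. One UMI stands for 1 transcript, so no scaling by length was made. Ratios carry exact conditional binomial intervals, levels exact Poisson and shares exact Clopper-Pearson intervals. No test was possible with 1 library per genotype. No doublet caller was run, and barcodes with 2 or more hormones at 10% were left out in an alternative. In nonendocrine barcodes hormone genes took 2.39% of UMIs in WT and 1.95% in GKO. Settings for strand and multi-mapped reads are not given in the sources used here.

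Named members are 36 genes fixed by symbol, the 3 members with the highest and the 3 with the lowest log2 ratio per group among those measured, and the 5 widest ranges over groups. Members under 500 UMIs, Eif2d, Eif2b2, Eif4a3, Eif3g and genes of a marker class were named after their values were seen. The intervals were tested on simulated Poisson counts, the error that they assume. This checked their computation only, since differences between barcodes were not simulated. Alternatives changed the total, scaling (TMM), weight of barcodes, barcode filters, hormone limit, depth, minimum UMIs and fold limit. Tools were edgeR 4.0.16 in R 4.3.3, and Python 3.11.15 with pandas 2.3.3, scipy 1.17.1, numpy 2.4.6, Biopython 1.88 and matplotlib 3.10.9.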

Additional observations from a re-analysis of the deposited data

Results flagged for a closer look

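The summed level of the translation factors had log2 ratios of GKO to WT of opposite sign in different barcode groups, −0.030 in α and −0.010 in nonendocrine barcodes against 0.067 in β, 0.048 in δ and 0.040 in γ barcodes. With 1 library per genotype this difference between groups was not tested, and every value is far inside the limit of 0.32. The barcodes left out by the limits on genes and mitochondrial UMIs, 692 in WT and 943 in GKO, entered no comparison between genotypes other than the alternative with all barcodes, and the Ghrl counts. In them, with all cell types pooled, the factors made up 0.592% of the UMIs in WT and 0.695% in GKO, a log2 ratio of 0.23 (0.20 to 0.26). The left-out barcodes were not split by group, and the share of the factors differs between groups. Their ratio therefore cannot be set beside those of single kept groups, and the part of the cell mix in it was not tested.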

How the results depend on the processing

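No paired analysis was possible because each genotype has 1 library, and for the same reason no library could be left out. The sign of the summed log2 ratio held under all 10 alternatives in α and δ barcodes. Without hormone genes it was −0.0086 in β and 0.018 in γ. Without ribosomal protein and mitochondrial genes it was −0.051 in α and −0.024 in nonendocrine barcodes. With TMM it was −0.074 in α, −0.031 in β, 0.0063 in δ, −0.023 in γ and 6.36e-06 in nonendocrine barcodes. With equal weight of barcodes it was 0.077 in β and −0.024 in nonendocrine, and with all barcodes 0.016 in nonendocrine. At a hormone limit of 25% it was 0.051 in β, 0.059 in δ, 0.056 in γ and −0.021 in nonendocrine. Thinned to 2000 UMIs it was 0.089 in β, 0.058 in γ and −0.029 in nonendocrine, and without Eef1a1 −0.0039 in α, 0.080 in β, 0.067 in γ and −0.031 in nonendocrine barcodes. The members' median became 0.024 in β without hormone genes, 0.0014 in β and −0.019 in γ with TMM, 0.093 in δ at 25%, and 0.098 in γ after thinning. The cause was not tested. TMM moved the median of all genes by −0.097 in β, the largest shift of the alternatives run.

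Of the members past the limit, Eif3j1 in γ ranged from −0.47 to −0.25 and lost its call after thinning, and Eif4ebp1 in α ranged from −0.98 to −0.61. Eif3m was lower in β without hormone genes, which gave 1 lower member, and with Eif3j1 under TMM, which gave 2. In δ barcodes 0 members were higher without hormone genes, without ribosomal protein and mitochondrial genes, with TMM, with equal weight, with all barcodes and without barcodes of 2 hormones, since Eif4e3 then lay inside the limit (lowest 0.28; 0.16 after thinning), and at 25%, where it stood at 0.84 with under 500 UMIs. Leaving out barcodes of 2 hormones left 1 lower in δ, since Eif2b3 fell under 500 UMIs. A 25% limit gave 0 lower and 1 higher in α, 0 and 0 in δ and 1 higher in nonendocrine barcodes. At 25% Eif4ebp1 in α and Eif3j1 in δ still had ratios past the limit, but under 500 UMIs. Only 14 members and 431 genes stayed measured in δ barcodes there. Equal weight gave 1 higher in β, and all barcodes 1 higher in β and 1 in nonendocrine. A minimum of 100 UMIs gave 2 higher in α, 3 lower in δ with Eif4ebp1, 1 higher in γ and 2 lower in nonendocrine barcodes, and a limit of 1.5-fold left 0 in δ and γ. Thinning to 2000 UMIs, which leaves few UMIs per gene, gave 3 lower and 3 higher in α, 7 and 7 in β, 3 and 1 in δ, where Eif4e3 and Eif2b3 (−0.21) lost their calls, 0 and 5 in γ and 2 and 1 in nonendocrine barcodes. The share of all genes past the limit is not given for the alternatives. Their counts of members therefore cannot be read as more or fewer than for other genes.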
